A study of Mus musculus with 15 samples.

Results

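Solute carriers are the membrane proteins that move glutamate, GABA, amino acids, sugars, ions, metals and metabolites across the membranes of neurons and glia. The promoters described here are those whose gene name in the deposited promoter-capture Hi-C table begins with Slc and a family number. The mitochondrial carriers of family Slc25 were left out. This choice used names alone and gave 86 of 4429 promoters, with 774 of the table's 36353 listings of a promoter with a fragment. The other 4343 promoters had 35579 listings. The name rule also took in Slc7a6os, which is not a carrier but a gene named for its place opposite Slc7a6.

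Promoter-capture Hi-C joins stretches of DNA that lie close together in the nucleus, then pulls out the joined pieces that hold a baited promoter. Each listing is therefore a promoter with a HindIII restriction fragment that was found with it, and the authors' interaction score is the value given to that pair. The nuclei came from hippocampus and were sorted for NeuN, a protein of neurons, and for a yellow fluorescent label, in mice carrying ArcCreERT2 and a floxed eYFP reporter at the R26R locus, genotype +/+ per the labels. In these mice the activity-driven Arc gene controls the recombinase, so that neurons active while 4-hydroxytamoxifen is present keep the label. Tissue of 10 to 12 mice was pooled to obtain 10000 nuclei per condition. The 4 groups are named Basal (3 libraries), Early, Late and Reactivated (4 libraries each) in the sample titles.

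All groups share the same alleles. Dark housing for 24 h before and 48 h after the procedure is recorded alike for every library. The protocol describes 4-hydroxytamoxifen given to the mice 1 h ahead of contextual fear conditioning. Tissue was collected 1.5 to 2 h later, or at 5 days, or after re-exposure to the context. The labels do not state which of these times belongs to which group, and their treatment field gives every sample a collection day of its own, from 0 to 14, with no recall. Groups were therefore taken from the titles alone. The labels name no separate mice for each library, so p-values measure the spread between these libraries, which may in part be technical. Since nuclei were sorted as neurons, promoters of neuronal and of glial markers were looked up, but a contact is not an RNA level. Listings were present for 6 of 9 neuronal, 5 of 7 astrocyte, 7 of 8 oligodendrocyte and 3 of 8 microglial and vessel markers, so the table says nothing of the purity of the sort.

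Transporters differ in where they work. The Slc1 and Slc6 families clear glutamate, GABA and related molecules from around synapses, Slc17, Slc18 and Slc32 members load synaptic vesicles, and families such as Slc2 and Slc16 supply glucose, lactate and other fuels. Others sit on inner membranes: Slc35 members carry nucleotide sugars into the Golgi and endoplasmic reticulum, and Slc36a1 carries amino acids with protons out of lysosomes. A promoter can be regulated by enhancers far away on its chromosome, and such enhancers are often looked for among its contacts, although a contact alone does not show regulation.

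Promoter sequences are shown for the 3 genes whose mean number of called interactions differed most between groups (Slc35a3, Slc16a11 and Slc36a1) and for Slc17a6, which had the lowest adjusted p of the differences named. They were read from RefSeq windows of 300 bases (250 before and 50 after a transcript's start, 5′ to 3′ on the gene's strand). The windows are on build GRCm38.p6, whereas the contacts are on build mm9, so coordinates of the windows and of the contacts must not be compared. Capitals mark the sequence motifs that were searched for on both strands: the cAMP response element TGACGTCA, the GC box spelled GGGCGG, the box spelled CCAAT, the HindIII site spelled AAGCTT, and the E-box spelled CACGTG. The E-box was added to the search after the Slc36a1 window had been read, so its presence there is how it was chosen. Slc17a6 has a second window, not shown, with no motif. No searched motif was found in the Slc35a3 window.
Slc36a1, chr11:55204090-55204389, plus strand: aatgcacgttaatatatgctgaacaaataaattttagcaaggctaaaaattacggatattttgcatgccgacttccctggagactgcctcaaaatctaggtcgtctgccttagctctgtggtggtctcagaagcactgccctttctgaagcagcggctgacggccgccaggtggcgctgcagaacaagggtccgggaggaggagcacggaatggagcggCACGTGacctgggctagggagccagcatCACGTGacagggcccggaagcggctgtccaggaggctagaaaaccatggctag
Slc16a11, chr11:70213660-70213959, plus strand: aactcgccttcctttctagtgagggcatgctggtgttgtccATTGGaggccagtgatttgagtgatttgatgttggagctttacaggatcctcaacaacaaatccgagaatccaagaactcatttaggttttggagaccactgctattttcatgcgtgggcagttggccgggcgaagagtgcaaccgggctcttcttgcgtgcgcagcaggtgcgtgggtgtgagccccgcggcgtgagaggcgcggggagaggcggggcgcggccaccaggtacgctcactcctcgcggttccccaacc
Slc17a6, chr7:51621580-51621879, plus strand: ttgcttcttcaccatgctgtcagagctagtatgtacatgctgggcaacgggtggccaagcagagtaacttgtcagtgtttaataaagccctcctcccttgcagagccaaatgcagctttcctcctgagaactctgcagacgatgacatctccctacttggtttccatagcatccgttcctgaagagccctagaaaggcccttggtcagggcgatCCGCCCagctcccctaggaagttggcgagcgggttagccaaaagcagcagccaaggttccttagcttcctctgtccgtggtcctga
Slc35a3, chr3:116712231-116712530, minus strand: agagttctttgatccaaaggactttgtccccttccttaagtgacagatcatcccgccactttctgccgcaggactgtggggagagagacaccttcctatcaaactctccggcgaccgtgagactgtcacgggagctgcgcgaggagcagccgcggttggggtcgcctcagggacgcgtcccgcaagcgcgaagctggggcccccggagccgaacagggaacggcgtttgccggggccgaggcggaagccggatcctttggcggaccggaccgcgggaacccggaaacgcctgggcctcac

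The Slc36a1 window holds the E-box letters at positions 220 and 248, the Slc16a11 window a CCAAT box at position 42 in reverse and the Slc17a6 window a GC box at position 215 in reverse, counted from 1 at the window's 5′ end. Of the 86 promoters, 66 had at least 1 RefSeq window. The E-box letters were in a window of 10 of these 66 genes (15.2%), against 11% of 3196 other listed genes and 8.09% of all 27025 genes with a window; these counts include Slc36a1. The GC box was in 66.7% of solute carrier genes, against 67.1% of other listed genes and 38.2% of all genes with a window. CCAAT was in 37.9% and 42.7%, the cAMP response element in 1.52% and 3.6% and the HindIII site in 6.06% and 7.48% of solute carrier and other listed genes. The median GC content was 61.9% against 60.7%. These matches describe letters only; no binding was measured.

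Solute carrier promoters had 9 ± 6.29 listed fragments each (SD over 86 promoters, median 7, range 1 to 27), against 8.19 ± 7.03 over the other promoters (median 6, range 1 to 163). At least 10 fragments were listed for 36 solute carriers (41.9%), against 30.7% of other promoters. The listed scores had a median of 88 for solute carriers and 95 for the others. In both sets most cells of the table were empty, 84.4% and 84.7%. Solute carrier promoters thus had slightly more fragments and slightly lower scores, with distributions that overlap almost wholly, and promoters are not replicates of a condition, so no test was made.

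Most contacts lay in a cluster. Distance was measured not from the bait, whose position was not used here, but from the median position of a promoter's own fragments. Within 500 kb of that position lay 575 of the 774 solute carrier listings (74.3%), against 70.8% of the other listings, and more than 5 Mb away lay 13.4% against 15.3%. A distant fragment was still common per promoter: 54 of 86 solute carriers (62.8%) had at least 1 fragment more than 5 Mb from their own centre, against 56.3% of other promoters. Fragments next to another fragment of the same promoter made up 18.9% of solute carrier listings (95% exact binomial interval 16.2 to 21.8) and 14.7% of the others, and 38 of 86 solute carriers (44.2%) had such a run of neighbours, against 35% of other promoters. The interval covers counting error only, and listings of a promoter are not independent. The longest solute carrier runs had 4 fragments, among them 1 at Slc36a1 (chr11:55251150-55273328), and the longest run elsewhere had 7.

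Some contacts could not be assigned to a single gene. Of the 774 listings, 141 (18.2%, interval 15.6 to 21.1) were of a fragment listed with another promoter too, against 15.4% of the other listings. They lay on 138 fragments and touched 57 of the 86 promoters, and 3 of these fragments joined a pair of solute carriers. Those pairs were Slc16a11 with Slc16a13, Slc3a2 with Slc22a8 and Slc7a6 with Slc12a4. The fragments with the most promoters, 6 each, were a pair of neighbours on chromosome 3 listed with Slc50a1, Krtcap2, Hcn3, Msto1, Rusc1 and Thbs3.

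**Figure D1:**
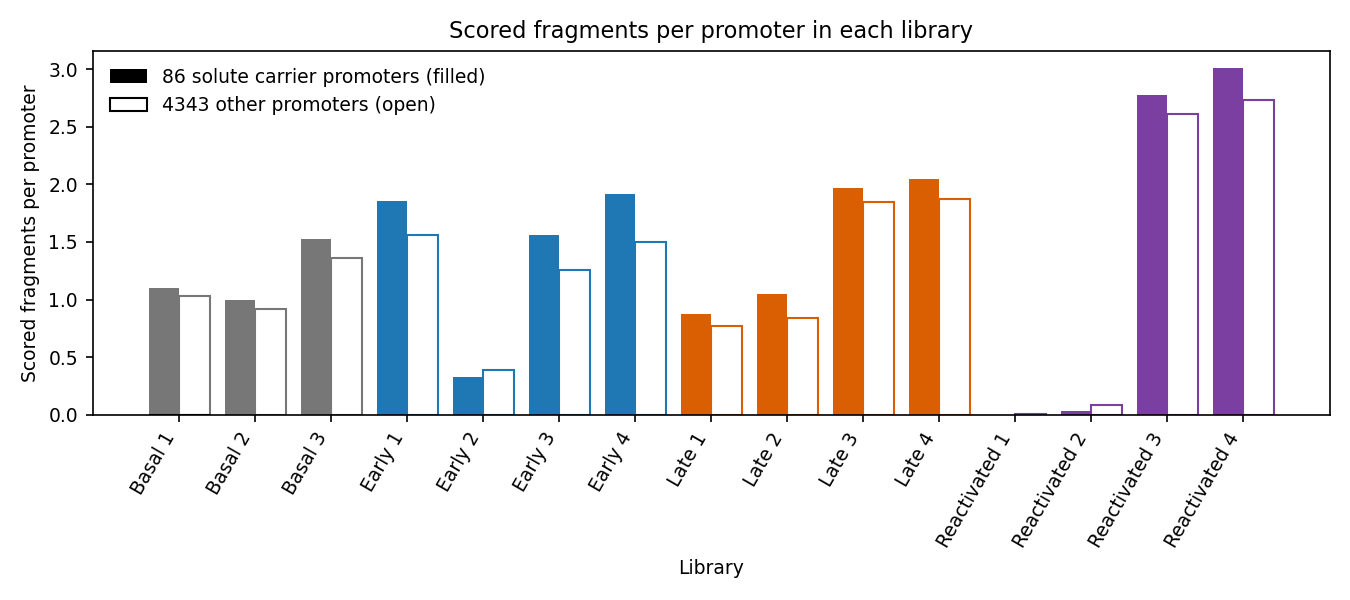
Scored fragments per promoter (y axis) in each of the 15 libraries (x axis), for 86 solute carrier promoters (filled bars) and 4343 other promoters (open bars), coloured by group. Solute carriers follow the other promoters from library to library; Reactivated libraries 1 and 2 are nearly empty and Reactivated libraries 3 and 4 are the fullest.

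The libraries differed more from each other than the sets of promoters did, as the bars per library show. In the whole table a library held 35 to 12133 listings. The solute carriers had 95, 86 and 132 scored fragments in the Basal libraries and 160, 28, 134 and 165 in the Early ones. They had 75, 90, 169 and 176 in the Late libraries and 0, 3, 239 and 259 in the Reactivated ones. Reactivated libraries 1 and 2 thus carried almost nothing, so that Reactivated values rest almost wholly on libraries 3 and 4, and Early library 2 was sparse. In Reactivated library 1, 0 of 35 listings were of solute carriers, which allows a share of up to 8.57% by a limit of 3 counts, or 10% by the exact binomial interval. In the libraries other than Reactivated 1 and 2, solute carriers made up 1.63 to 2.47% of listings.

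Libraries also came in sets. Within a group, 5 pairs of well-filled libraries shared 57.3 to 96.7% of the solute carrier fragments of the smaller library: libraries 1 and 2 of Basal, 3 and 4 of Early, 1 and 2 and also 3 and 4 of Late, and 3 and 4 of Reactivated. Pairs with the nearly empty Reactivated libraries 1 and 2 were left out of the ranges that follow. Library pairs of the same group outside these sets shared 8 to 25% (11 pairs, median 15%), and pairs of different groups shared 3.57 to 35.1% (62 pairs, median 18.1%). Reactivated library 2, among those left out, shared 0% with Reactivated libraries 3 and 4. A fragment scored in both libraries of a set is therefore weaker evidence than a fragment scored in separate sets, and counts of sets are given beside counts of libraries. Read as counts, the scores of set partners had a chi-square of 2.72 to 11.5 per degree of freedom over all shared fragments, and of 0.888 over the 43 solute carrier fragments shared by Late libraries 1 and 2. PCR and capture noise alone can exceed Poisson noise, so these values do not show that partners are separate samples, and the labels do not say. The correlation within sets, estimated by limma, was 0.974 for listings, 0.947 for mean scores and 0.917 for called interactions. The fit of all 15 libraries counts partners as separate libraries, as the labels list them, and its p-values are too small where partners are repeats of a sample. Fits with each set as its mean, or as a random effect, therefore stand beside it.

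**Figure D2:**
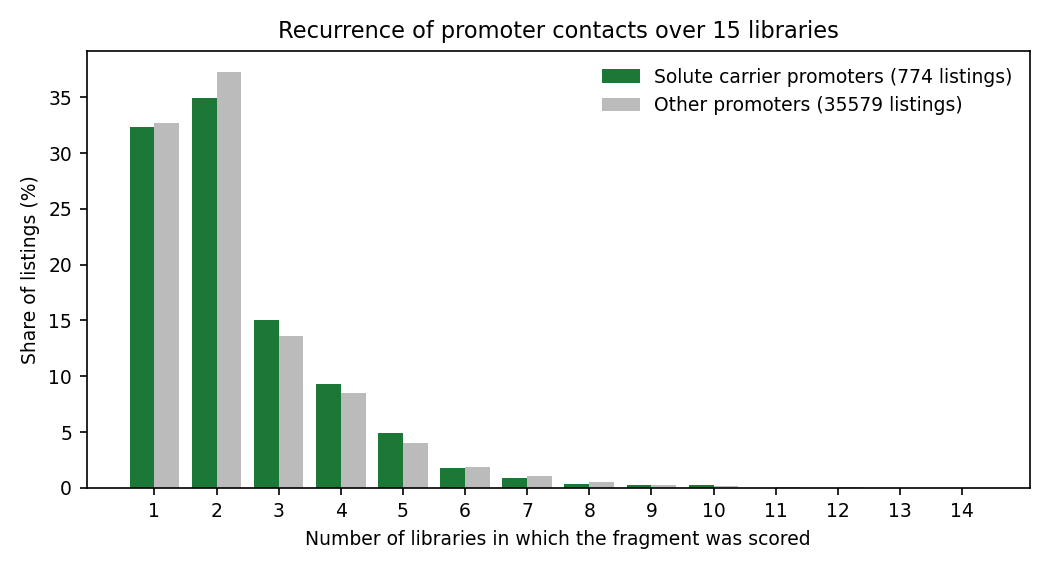
Share of listings (y axis, %) by the number of the 15 libraries in which the fragment was scored (x axis), for 774 listings of solute carriers and 35579 listings of other promoters. Both distributions fall steeply after 2 libraries; the highest number is 10 for solute carriers and 14 for other promoters.

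Recurrence over the libraries was low and alike in both sets. Of the solute carrier listings, 32.3% (interval 29 to 35.7) were scored in a single library, against 32.7% of the others. In a single library set were 64.3% against 65.6%, and in 3 or more sets 12.8% against 11.1%. In all 4 groups were 9 solute carrier listings (1.16%, interval 0.533 to 2.2) against 1.61% of the other listings. A call was set at a score of 5 or more. Called listings made up 26.5% of solute carrier and 27.1% of other listings for Basal, 41.9% and 39.8% for Early, 36.7% and 36.8% for Late, and 33.7% and 33.8% for Reactivated.

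Fragments called in a single group were the rule outside Basal. Of the listings called in Basal, 28.3% were called in no other group for solute carriers and 33.1% for the other promoters. Such listings were 54.6% and 52% of those called in Early, 51.8% and 51.2% of those in Late, and 51.3% and 51.4% of those in Reactivated. A promoter counts as called when any of its fragments is. For Basal, 58 of the 86 solute carriers were called (67.4%), against 71.4% of other promoters. The count for Early was 73 (84.9% against 81.9%). Late had 77 called solute carriers (89.5% against 86%), while Reactivated had 72 (83.7% against 82.1%). Solute carriers and other promoters alike thus had their lowest share for Basal and their highest for Late. Of the 86, 49 (57%) had calls in all 4 groups, against 54.3% of other promoters. Calls in a single group were seen for 8 of the 86 promoters. They were Slc39a1 in Basal, Slc15a1, Slc1a7 and Slc6a20b in Early, Slc22a12 and Slc39a12 in Late, and Slc35b4 and Slc45a4 in Reactivated. Of the 86, 19 had fewer than 4 listed fragments, among them Slc15a1, Slc6a20b and Slc45a4 with 2 each. The share of other promoters called in a single group is not given here, so this count does not set solute carriers apart.

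**Figure D3:**
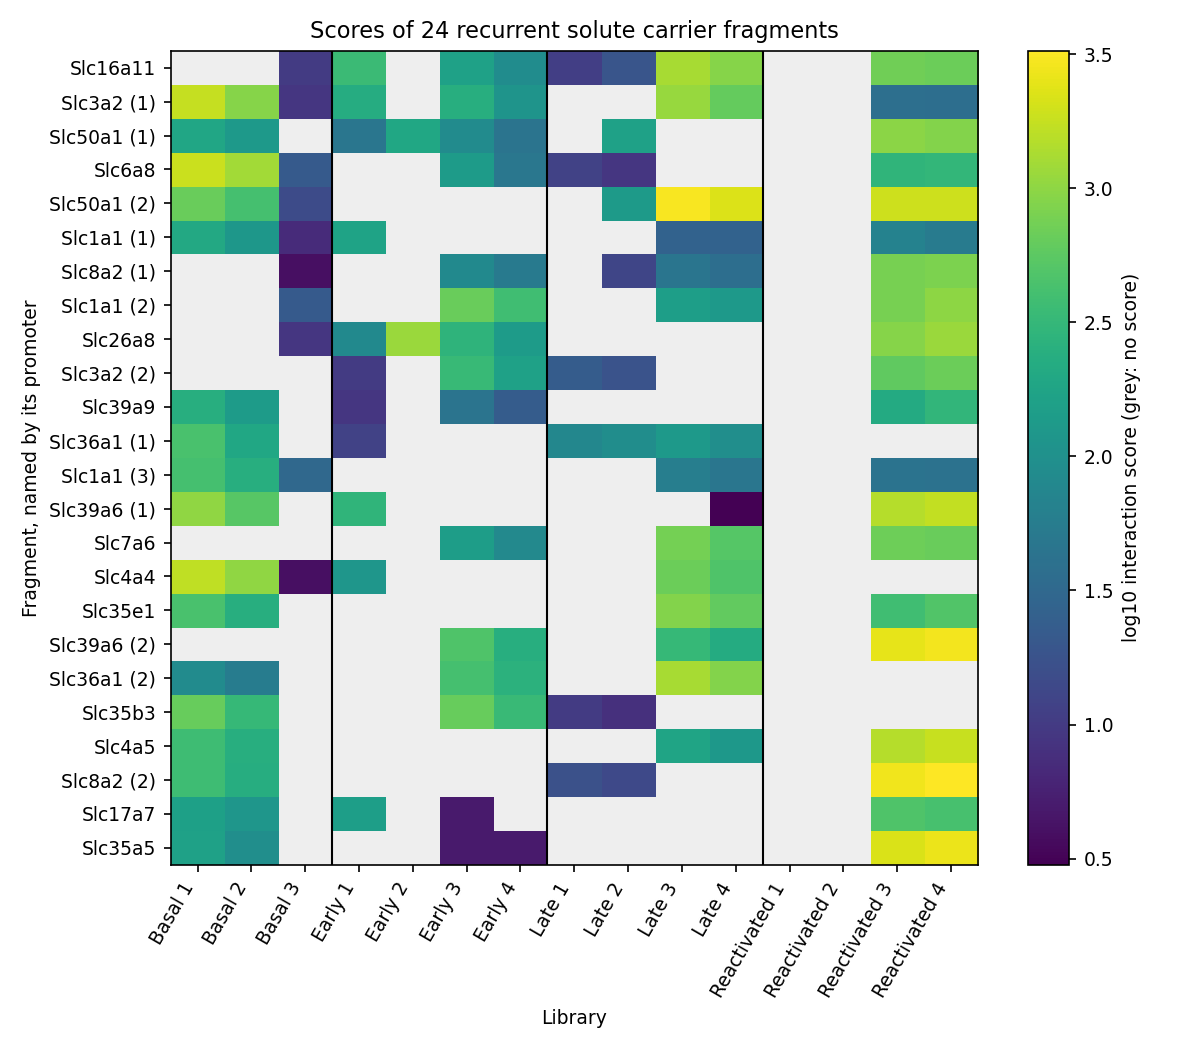
Scores on a log10 colour scale of 24 of the solute carrier fragments scored in the most libraries (rows, named by promoter, numbered where a promoter has several) in each library (columns; grey means no score, lines part the groups). Rows at the top are scored in 10 libraries, and neighbouring columns of a library set look alike.

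The most recurrent contacts joined genes of different roles, shown in the heat map of 24 recurrent fragments. Slc16a11, a monocarboxylate carrier, had a fragment at chr11:70035351-70035894 that was scored in 10 libraries of 6 sets and in all groups. Its scores were 0, 0 and 10 in Basal, 356, 0, 164 and 89 in Early, 11, 19, 1297 and 905 in Late, and 0, 0, 711 and 671 in Reactivated. Slc3a2, the heavy chain that brings several amino acid exchangers to the cell surface, had one at chr19:8845296-8846217 that was shared with Taf6l and also scored in 10 libraries. Its scores were 1747, 904 and 9 in Basal, 227, 0, 240 and 112 in Early, 0, 0, 1102 and 625 in Late, and 0, 0, 39 and 37 in Reactivated. Both fragments recurred in every group, with Slc16a11 scored in all 4 Late libraries and Slc3a2 in all 3 Basal libraries.

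Other fragments scored in 7 to 9 libraries were those of Slc50a1, a sugar carrier (9 libraries, shared with Krtcap2), Slc6a8, the creatine carrier (9, shared with Magea10), Slc50a1 again (8, in 3 groups, a fragment listed with 6 promoters), Slc1a1, the neuronal glutamate carrier EAAC1 (8, shared with Cdc37l1), Slc8a2, a sodium/calcium exchanger (8, shared with Napa), and Slc1a1 again (7). The last of these, at chr19:28899929-28901463, was listed with no other promoter. It scored 0, 0 and 22 in Basal, 0, 0, 655 and 386 in Early, 0, 0, 151 and 127 in Late, and 0, 0, 768 and 1003 in Reactivated.

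Carriers of transmitters and related amines and amino acids had the most promoters of any role, 16, with 137 listings. Of their listings 27.7% were scored in a single library and 39.4% in 3 or more, against 32.7% and 30% over the other promoters of the table. The widest was Slc1a1 with 25 fragments. It had 7, 6 and 9 called interactions in the Basal libraries, 7, 2, 6 and 7 in Early, 0, 0, 8 and 9 in Late, and 0, 0, 8 and 10 in Reactivated. The zeros of Late fall in a single library set, so Late is split between its sets rather than uniformly low.

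The vesicular glutamate transporters showed different patterns. Slc17a7, which encodes VGLUT1, the vesicular glutamate transporter of most hippocampal excitatory neurons, had 5 fragments, and called interactions were present in all 4 groups. They numbered 2, 2 and 2 in Basal, 2, 0, 2 and 1 in Early, 0, 0, 3 and 3 in Late, and 0, 0, 1 and 1 in Reactivated. Slc17a6, which encodes VGLUT2, had 7 fragments, with 5, 5, 0 and 0 called interactions in Late and 0, 0, 1 and 1 in Reactivated, but none in any Basal or Early library. Slc17a8, which encodes VGLUT3, had 10, with 1, 0 and 1 called in Basal, none in Early, 1 in each Late library, and 0, 0, 6 and 6 in Reactivated. For VGLUT2 and VGLUT3 the high values thus sit in a single library set each, and the scores of VGLUT2 in Late were low, from 13 to 20.

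Promoters of GABA transport varied too. Slc6a11 (GAT3, chiefly an astrocyte transporter) had 11 fragments, and its called interactions numbered 5, 3 and 2 in Basal, 2, 0, 2 and 2 in Early, 0, 2, 0 and 0 in Late, and 0, 0, 7 and 7 in Reactivated. Slc32a1, the vesicular transporter of GABA and glycine, had 8 fragments, and its called interactions numbered 1, 0 and 5 in Basal, 0, 0, 0 and 1 in Early, 0, 0, 2 and 2 in Late, and 0, 0, 3 and 3 in Reactivated. Slc6a12 (betaine and GABA) had 5 fragments and Slc6a13 (GAT2) had 3, with at most 1 and 2 called interactions in any library.

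Of a list of 30 transporters well known in brain, 16 had a listing. Besides those above they included the glutamate carrier Slc1a3 (GLAST, of astrocytes; 4 fragments), the vesicular monoamine transporter Slc18a2 (7), the proline transporter Slc6a7 (15), the glucose carriers Slc2a1 (GLUT1; 5) and Slc2a3 (GLUT3, of neurons; 10), the lactate carrier Slc16a7 (MCT2; 10) and the sodium/calcium exchangers Slc8a1 (13) and Slc8a2 (5). The highest score among them was at Slc1a3, chr15:27700058-27702004, with 0, 0, 3612 and 4331 in Reactivated and no score in the 11 other libraries. The neuronal GLUT3 promoter had 10 fragments, of which the most recurrent was scored in 4 libraries, all of 2 sets. GLUT1 had no call in Reactivated, and 2 or fewer in every other library. None of the 16 passed the adjusted threshold in the fit of all 15 libraries; those that passed with libraries left out are given with their comparison or among the counts below.

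Nucleotide sugar, nucleoside and phosphate carriers had the most fragments per promoter, 13.2 ± 7.63 over 13 promoters, and included 3 of the 6 promoters with the most fragments. These were the phosphate carrier Slc20a1 (25 fragments), the Golgi UDP-N-acetylglucosamine carrier Slc35a3 (24) and the sulphate donor carrier Slc35b3 (22). Slc35e3 and Slc35f1, of the same family, had 18 each. The role's listings were scored in a single library in 36.6% of cases. The solute carrier with the most fragments of all was Slc4a4, the electrogenic sodium bicarbonate cotransporter, with 27; its called interactions numbered 1, 1 and 6 in Basal, 5, 1, 3 and 4 in Early, 1, 1, 8 and 8 in Late, and 0, 0, 10 and 10 in Reactivated.

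Its role, the cation-chloride, bicarbonate, anion and proton exchangers (9 promoters, 73 listings), had the highest share of listings called in Reactivated of any role with more than 1 promoter, 53.4% (interval 41.4 to 65.2, counting error only), against 33.8% of the other promoters. Its other groups stood at 24.7% (Basal), 37% (Early) and 30.1% (Late). The role's 39 listings called in Reactivated came from libraries 3 and 4, a single library set, with 10 at Slc4a4 and 7 at Slc4a3. The role was picked as the highest, which its interval does not allow for. Zinc, iron, copper and other metal carriers (10 promoters, 89 listings) were led by the zinc carrier Slc39a6 (19 fragments), and 39.3% of the role's listings were scored in a single library. Amino acid and peptide carriers (15 promoters, 137 listings) were led by Slc7a14 (23) and by Slc38a9 (18), a lysosomal arginine sensor. All 15 had a called interaction in Early, against 81.9% of other promoters, as did all 6 monocarboxylate, carboxylate and fatty acid carriers. Of the 15, 66.7% had one in Basal, 80% in Late and 66.7% in Reactivated. Other promoters stood at 71.4%, 86% and 82.1% in these groups. Sugar carriers (8 promoters, 60 listings) were led by the proton myo-inositol carrier Slc2a13 (13), monocarboxylate, carboxylate and fatty acid carriers (6, 55) by Slc16a12 (17), calcium and magnesium exchangers (4, 27) by Slc8a1 and organic ion, vitamin, choline and other carriers (4, 21) by the urea carrier Slc14a1 (12). Roles were assigned by gene name, so a member need not carry what its role is named for, as with Slc5a5 (7 fragments) among the sugar carriers. Slc7a6os had 3 listings.

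Mitochondrial carriers and other transporter families gave values on either side. The 17 Slc25 promoters had 10.1 ± 9.65 fragments and 25 promoters of other membrane transporters (ABC carriers, ion pumps and the like) had 7.28 ± 6.02. A single library scored 37.4% and 34.6% of their listings. No test of these differences was made, as promoters are not replicates.

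The groups were compared by limma fits across all promoters or listings, on 3 measures: the mean asinh-transformed score of a promoter over its listed fragments, its number of called interactions, and the asinh score of each listing. The inverse hyperbolic sine acts like a logarithm at high values and takes 0 for an absent score. No solute carrier promoter or listing passed a Benjamini-Hochberg adjusted p of 0.05 in any of the 6 comparisons on any of the 3 measures. By mean score the whole table had 4 promoters higher in Late than in Early (0.0903% of 4429), 3 lower in Reactivated than in Late (0.0677%), 1 higher (0.0226%) and 2 lower (0.0452%) in Late than in Basal and 1 lower in Reactivated than in Basal (0.0226%). By called interactions and by listing it had none. The counts at an unadjusted p follow with each comparison. For promoters they are numbers of the 86 solute carriers, set beside percentages of all promoters. The comparisons share groups (Late enters 3 of them, for example), so their results are not independent of each other.

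**Figure D4:**
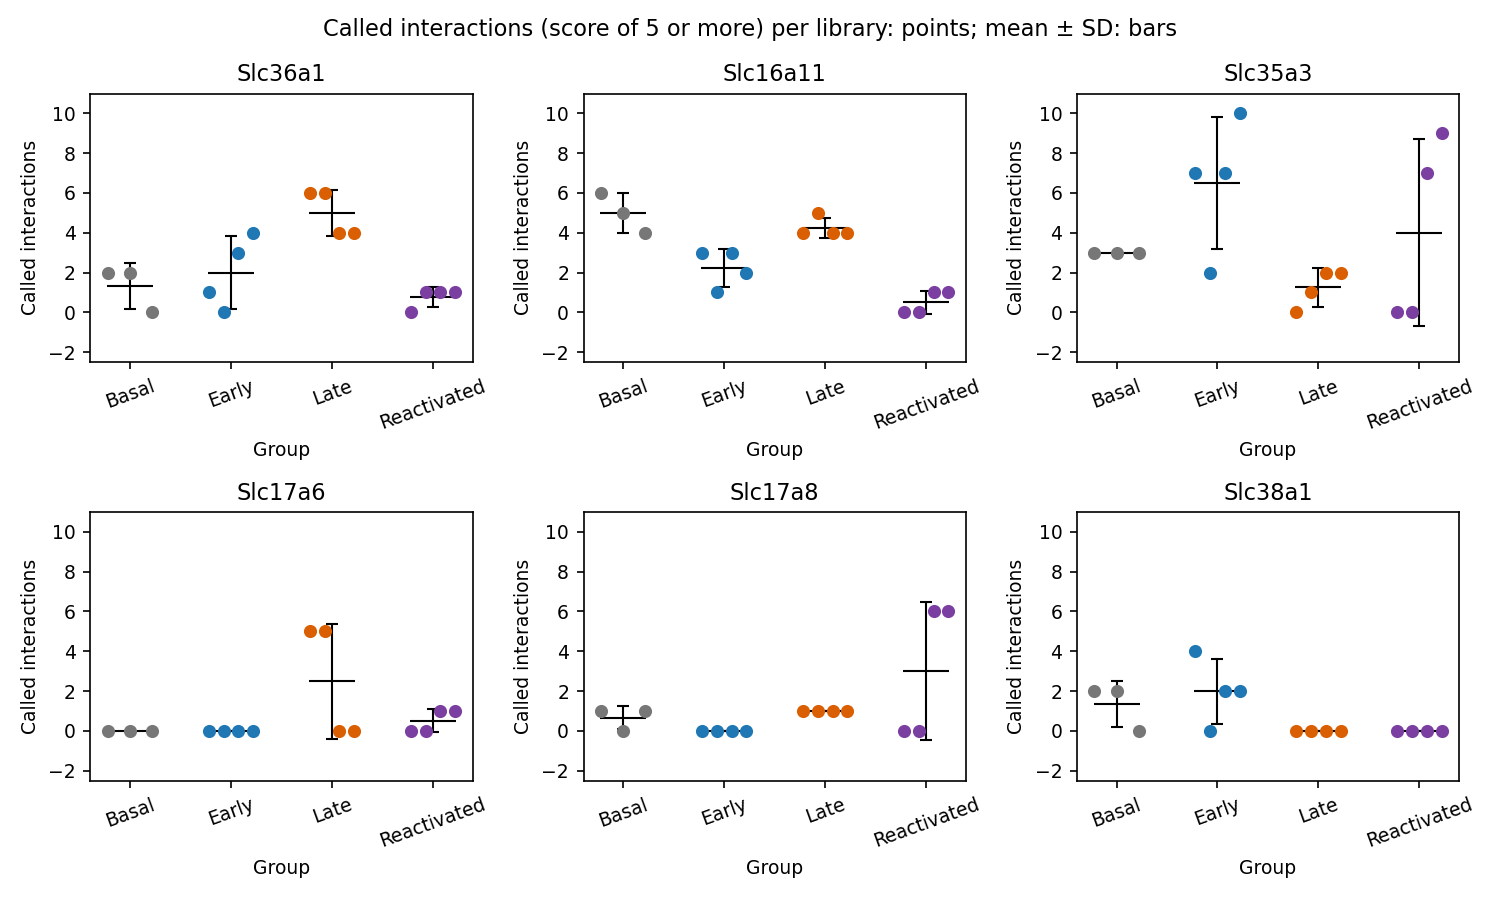
Called interactions (y axis, number of fragments with a score of 5 or more) per library (points) in the 4 groups (x axis), with mean ± SD (bars), for 6 solute carrier promoters. Slc36a1 is at 4 to 6 in Late and at most 4 elsewhere, Slc16a11 is at most 1 in Reactivated, and high values of Slc17a6 and Slc17a8 come from a pair of libraries each.

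In Early against Basal, the gains in called interactions were led by Slc35a3, with 7, 2, 7 and 10 in Early against 3, 3 and 3 in Basal, a difference of 3.5 ± 2.52 (SE; limma adjusted p = 0.974). The ranges overlapped. Next came Slc35d1, a nucleotide sugar carrier of the endoplasmic reticulum (3, 1, 2 and 3 in Early, 0 in each Basal library, difference 2.25 ± 1.19), and Slc2a13 (2, 0, 2 and 4 in Early, 0 in Basal, difference 2 ± 0.921). The losses were led by Slc16a11, with 3, 1, 3 and 2 in Early against 6, 5 and 4 in Basal (difference -2.75 ± 1.98, limma adjusted p = 0.974), so these groups did not overlap. Slc6a11, with 2, 0, 2 and 2 in the Early libraries against 5, 3 and 2 in the Basal ones, had a difference of -1.83 ± 1.54, with a shared value of 2. By called interactions, 5 solute carriers were higher and 1 lower at an unadjusted p of 0.05, of 86, against 2.38% and 2.18% of all 4403 promoters; by mean score 3 were higher and 2 lower, against 2.37% and 3.45% of 4429. Of the solute carrier listings 45 were higher and 38 lower at that p (5.81% and 4.91%), against 4.4% and 6.24% of all listings.

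Among single fragments, the largest rise in Early was at Slc26a8, an anion exchanger best known from sperm, at chr17:28833229-28834717. It scored 82, 1128, 283 and 138 in Early against 0, 0 and 9 in Basal, a difference of 5.23 ± 2.59 on the asinh scale (limma adjusted p = 0.442). Its score was 0 in all Late libraries and 0, 0, 909 and 1152 in Reactivated, so it was scored in 5 sets. The largest fall was at Slc16a11, chr11:69891056-69899018, with 0 in all Early libraries against 2086, 1352 and 12 in Basal (difference -6.47 ± 2.39, limma adjusted p = 0.221). Late libraries 3 and 4 scored this fragment at 1779 and 1206. Scored in every Basal and no Early library were 7 of 774 solute carrier listings (0.904%), against 0.875% of all listings, and in every Early and no Basal library were 0, against 0.0715%.

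In Late against Early, Slc36a1, the proton-coupled amino acid carrier of lysosomes, led the gains, with 6, 6, 4 and 4 called interactions in Late against 1, 0, 3 and 4 in Early. The difference was 3 ± 1.54 (limma adjusted p = 0.524), with a shared value of 4 in the 2 groups. Slc17a6 followed, with 5, 5, 0 and 0 in Late against 0 in every Early library (difference 2.5 ± 0.694, limma adjusted p = 0.0956). This was the lowest adjusted p of the 36 named differences in called interactions, and it passed without Late library 3 (0.021) or without Late library 4 (0.02), by the same limma test. Both high values belong to 1 library set, and with each set as its mean or as a random effect the limma adjusted p was 1. The losses were led by Slc35a3, with 0, 1, 2 and 2 in Late against 7, 2, 7 and 10 in Early (difference -5.25 ± 2.33, limma adjusted p = 0.487), which shared the value 2. Slc38a1, a glutamine carrier of neurons, had 0 in every Late library against 4, 0, 2 and 2 in Early, and Slc8a1, the NCX1 exchanger, 0, 0, 1 and 1 in Late against 1, 1, 4 and 5 in Early. By called interactions 7 of the 86 solute carriers were higher and 7 of 86 lower at an unadjusted p of 0.05, against 6.77% and 2.77% of all promoters. By mean score 6 of 86 were higher and 5 lower, against 4.99% and 1.96%. Of the listings 73 were higher and 58 lower (9.43% and 7.49%), against 9.52% and 5.62% of all listings.

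**Figure D5:**
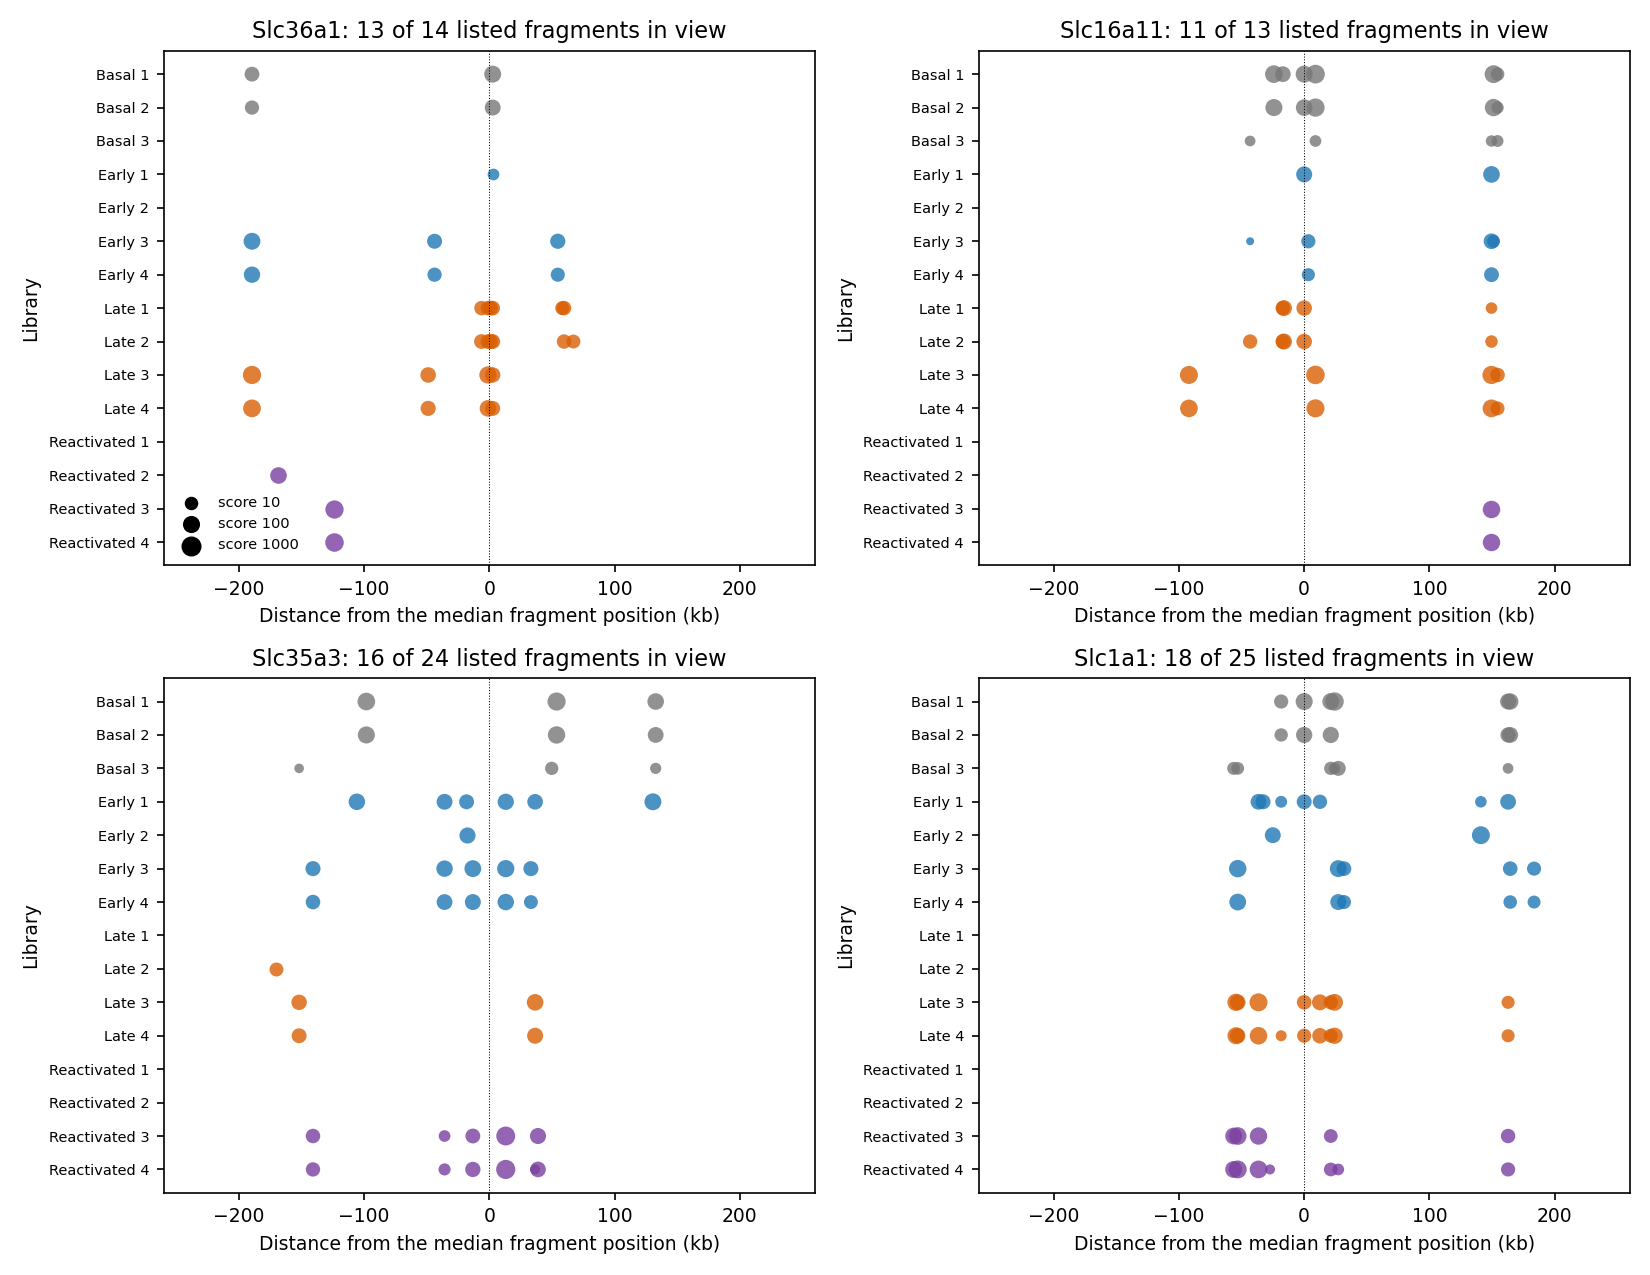
Scored fragments of 4 solute carrier promoters within 250 kb of the median position of their fragments (x axis, kb) in each library (y axis, coloured by group); the point's area grows with the log of the score. For Slc36a1 the 4 Late libraries have points just left of the centre from a fragment that the 11 other libraries lack. Basal libraries 1 and 2 and Early library 1 have a point close by, from a fragment of the same run.

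The Slc36a1 contacts formed a block, as the maps of fragment positions show. Of its 14 fragments, 13 lie within 250 kb of their median position on chromosome 11. The fragment chr11:55196778-55200161 scored 70, 80, 550 and 319 in Late and had no score in the other 11 libraries. The difference from Early was 5.87 ± 1.86 on the asinh scale (limma adjusted p = 0.276), the largest rise of any solute carrier listing in that comparison. Its neighbour chr11:55200164-55201161 scored 72 and 90 in Late libraries 1 and 2 and nowhere else. The next one, chr11:55201164-55203388, scored 76, 93, 130 and 94 in Late, 12, 0, 0 and 0 in Early, 441, 195 and 0 in Basal, and 0 in all Reactivated libraries. Of these 3 fragments in a row, the outer pair was scored in both Late library sets and the middle one in a single set. A further fragment, chr11:55007826-55012281, listed with Anxa6 as well, scored 1295 and 881 in Late libraries 3 and 4, 418 and 271 in Early libraries 3 and 4 and 87 and 57 in Basal libraries 1 and 2.

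Other fragments followed the same rule. Scored in every Late and in no Early library were 3 solute carrier listings (0.388%), against 0.239% of all listings. Besides Slc36a1, these were at Slc35e3, chr10:117545644-117552317, with 23, 30, 409 and 279 in Late, and at Slc39a14, a zinc and manganese carrier, chr14:70609643-70610377, with 18, 19, 205 and 118. All 3 had no score in any Early, Basal or Reactivated library. The reverse pattern, every Early and no Late library, was seen at Slc26a8 alone (0.129%, against 0.044% of all listings).

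Reactivated against Late asks what re-exposure to the context changed, if the Reactivated group is that of the re-exposed mice. In this comparison Reactivated libraries 1 and 2 contribute almost only empty values. Losses were led by Slc36a1, with 0, 1, 1 and 1 called interactions in Reactivated against 6, 6, 4 and 4 in Late, so that the groups did not overlap (difference -4.25 ± 1.54, limma adjusted p = 0.153). Slc16a11 had 0, 0, 1 and 1 in Reactivated against 4, 5, 4 and 4 in Late (difference -3.75 ± 1.83, limma adjusted p = 0.308), again with no overlap. Without Reactivated libraries 1 and 2 the Slc36a1 difference was -4 and passed (limma adjusted p = 0.0226), but the Reactivated group is then 1 library set counted as 2 libraries. With all libraries and each set as its mean or as a random effect, the limma adjusted p was 1. For both genes even the well-filled Reactivated libraries 3 and 4 had 1 called interaction each.

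The gains were carried by Reactivated libraries 3 and 4. Slc6a11 had 0, 0, 7 and 7 in Reactivated against 0, 2, 0 and 0 in Late (difference 3 ± 1.43, limma adjusted p = 0.308), and the amino acid carrier Slc6a15 had 0, 0, 7 and 7 against 1, 0, 2 and 2. Without Reactivated libraries 1 and 2 both passed (differences 6.5 and 5.75, limma adjusted p = 0.000374 and 0.000539), with 1 library set counted as 2 libraries. Neither passed with all libraries and each set as its mean or as a random effect. By called interactions 6 of the 86 solute carriers were higher and 7 lower at an unadjusted p of 0.05, against 6.95% and 7.45% of all promoters. By mean score 4 of 86 were higher and 7 lower, against 8.06% and 5.78%. Of the listings 118 were higher and 75 lower (15.2% and 9.69%), against 16.2% and 9.99% of all listings. Without Reactivated libraries 1 and 2, 36 of 86 solute carriers passed by mean score (41.9%), against 43.8% of all promoters, and 25 (29.1%) against 28.1% by called interactions. These shares were near those of the whole table, and the libraries left share 96.7% of solute carrier fragments. Of the 25 promoters that passed by called interactions, 23 were higher in Reactivated and 2 lower, Slc36a1 among the lower ones. In every Late and no Reactivated library were 4 solute carrier listings (0.517%), against 0.311% of all listings: a pair at Slc36a1 and those at Slc35e3 and Slc39a14.

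In Late against Basal, Slc36a1 had the largest gain, with 6, 6, 4 and 4 called interactions in Late against 2, 2 and 0 in Basal, without overlap (difference 3.67 ± 1.66, limma adjusted p = 0.495). Slc17a6 had 5, 5, 0 and 0 in Late and 0 in Basal (limma adjusted p = 0.186), and passed without Late library 3 or 4 (limma adjusted p = 0.0468 and 0.0447), but not with each set as its mean or as a random effect (limma adjusted p = 1 in both). The largest losses, at Slc1a1 (difference -3.08 ± 3.63) and Slc6a11 (-2.83 ± 1.54), rested on Late libraries 1 and 2 for Slc1a1 and on 3 of 4 Late libraries for Slc6a11. With fragments listed with 1 promoter alone, the Slc1a1 difference turned to 0.5. The largest falls of single fragments were at Slc35e3, chr10:117480865-117484250, with 0 in Late against 1414, 830 and 10 in Basal (difference -6.12 ± 1.96, limma adjusted p = 0.182), at Slc50a1 and at Slc20a1. By called interactions 7 of the 86 solute carriers were higher and 1 lower at an unadjusted p of 0.05, against 6.2% and 2.27% of all promoters. By mean score 6 were higher and 3 lower, against 4.97% and 3.23%, and of the listings 52 were higher and 39 lower (6.72% and 5.04%), against 6.48% and 6.45% of all listings. In every Late and no Basal library were 3 solute carrier listings (0.388%, against 0.237%), and in every Basal and no Late library 5 (0.646%, against 0.869%).

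Reactivated against Basal and against Early again turned on libraries 3 and 4. Slc17a8 (VGLUT3) had 0, 0, 6 and 6 called interactions in Reactivated against 0 in every Early library, a difference of 3 ± 0.927 (limma adjusted p = 0.168). It passed without Reactivated library 1 or 2 (difference 4, limma adjusted p = 0.00681 and 0.00761), which leaves the pair that carries it and 1 nearly empty library. The sugar carrier Slc2a6 had 0, 0, 7 and 7 in Reactivated against 1, 0, 1 and 1 in Early and 1, 1 and 1 in Basal. Slc6a15 had 0, 0, 7 and 7 against 0 in every Basal library (difference 3.5 ± 1.35, limma adjusted p = 0.379), and passed without Reactivated library 1 or 2 (limma adjusted p = 0.0423 and 0.0465). Slc16a11 was lower, with 0, 0, 1 and 1 in Reactivated against 6, 5 and 4 in Basal and no overlap (difference -4.5 ± 1.98, limma adjusted p = 0.441). Without Reactivated libraries 1 and 2 it passed (difference -4, limma adjusted p = 0.0284), where Reactivated is 1 library set and 2 of the 3 Basal libraries are another. For all of Slc17a8, Slc6a15 and Slc16a11, the limma adjusted p was 1 with all libraries and each set as its mean or as a random effect. By called interactions 6 of the 86 solute carriers were higher and 2 lower than in Basal at an unadjusted p of 0.05, against 6.11% and 2.77% of all promoters. Against Early, 8 of 86 were higher and 5 lower, beside 7.61% and 3.13%. By mean score 7 were higher and 4 lower than in Basal, against 7.56% and 3.66%, and 6 higher and 4 lower than in Early, against 8.4% and 2.87%. Of the listings 96 were higher and 43 lower than in Basal (12.4% and 5.56%), against 13.7% and 6.56% of all listings, and 117 higher and 57 lower than in Early (15.1% and 7.36%), against 15.5% and 5.79%.

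Without Reactivated libraries 1 and 2, 33 solute carriers passed by mean score against Basal and 33 against Early (38.4% each), against 45.6% and 45% of all promoters. The high single fragments in Reactivated were at Slc1a3 (given above), at Slc38a9, chr13:113644633-113645734, with 0, 0, 3350 and 4225, and at Slc35b3, chr13:39010165-39012131, with 0, 0, 3217 and 3619. Basal and Early libraries had no score at the Slc38a9 fragment, nor Late and Early libraries at the Slc35b3 one. In every Basal and no Reactivated library were 9 solute carrier listings (1.16%), against 0.985% of all listings. No solute carrier listing was scored in every Reactivated library, since library 1 held none.

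The median difference in mean asinh score of Early against Basal was 0.0969 for solute carriers and 0 for all promoters, and that of Late against Early was 0.0732 and 0.062. The medians of Late against Basal were 0.157 and 0.145. For Reactivated they were 0.138 and 0.182 against Late, 0.163 and 0.312 against Basal, and 0.17 and 0.258 against Early. With quantile normalization between libraries the Reactivated medians became -0.209 for solute carriers and -0.181 for all promoters against Late, -0.115 and -0.0539 against Basal, and -0.194 and -0.121 against Early, so their sign depends on the scaling.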

How the data were processed

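The deposited table holds the authors' interaction score for pairs of a promoter and a HindIII fragment in 15 libraries. Its build is mm9, per the submitters' processing notes. Listed scores are whole numbers from 2 upward; a dot marks an absent score. The sources used here do not name an aligner, a scoring program or a normalization. Summed over listings, the scores of a library came to between 3114 and 9590409, and sequencing depth is unknown. Members were the rows whose name matches the carrier pattern. The members, roles and gene lists were chosen with earlier results of these data known.

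Groups came from the sample titles. Scores were put on the asinh scale, absent ones as 0, without filtering. All 15 libraries entered a single limma 3.58.1 fit in R 4.3.3 (statmod 1.5.0) with a variance trend and robust empirical Bayes, over all 4429 promoters, 4403 promoters with a call, or 36353 listings, and p-values were Benjamini-Hochberg adjusted over each whole table. The scripts were tested on simulated data. Summaries used matplotlib 3.10.9, scipy 1.17.1, numpy 2.4.6 and pandas 2.3.3 in Python 3.11.15. Library sets are libraries of a group sharing at least 40% of the smaller one's fragments. Exact binomial (Clopper-Pearson) intervals cover counting error only. Promoter windows came from RefSeq, GRCm38.p6; all 86 names matched a gene. The CACGTG motif was added after the Slc36a1 window had been read.

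The genes named in each comparison are the 3 promoters that gained and the 3 that lost most called interactions, and the 3 fragments that rose and fell most, of which the text gives the leading ones. Also named are the widest promoters, the most recurrent fragments, the leader of each role and the listed brain transporters. The promoters printed as sequence, promoters called in a single group, the fragments around those at Slc36a1, Slc6a12 and fragments in every library of a group and no library of another were chosen after their values were seen. Alternatives tried were other scalings, scales and call thresholds, no variance trend, fewer listings, library sets as a mean or a random effect, the replicate number as a block, and leaving out libraries. Replicate numbers do not pair the libraries: deviations of same-numbered libraries correlated between -0.068 and 0.067. Results of 2 promoters are not reported here; they remain in the counts and fits.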

Additional observations from a re-analysis of the deposited data

Results flagged for a closer look

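Within groups of 4 libraries, 8 series of values had a single library that lay far from the other 3. The measure was the gap to its nearest neighbour as a share of the whole range (Dixon's criterion at 95%). Chance flags about 1 in 20 such groups, and counts of few interactions tie easily. The number of series tried is not given here, and named genes and fragments were picked for large differences. The 8 can therefore not be set against that rate. The number of solute carrier promoters with a score in Early was 62, 22, 60 and 63 (gap share 0.927), with Early library 2 the low one. The same library was the low one at Slc6a11 (2, 0, 2 and 2 called interactions, gap share 1), at Slc2a6 (1, 0, 1 and 1, gap share 1), at the Slc35a3 fragment chr3:116418298-116418722 (scores 261, 0, 553 and 301, gap share 0.893) and at the Slc5a5 fragment chr8:73920262-73922529 (scores 112, 0, 141 and 88, gap share 0.916). Late library 2 stood apart at Slc16a11 (4, 5, 4 and 4 called interactions, gap share 1) and at Slc6a11 (0, 2, 0 and 0, gap share 1), and Reactivated library 1 at Slc36a1 (0, 1, 1 and 1, gap share 1). Early library 2 held 1715 listings in all, against 5615 to 6956 in the other Early libraries, and Reactivated library 1 held 35; their part in these values was not tested.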

How the results depend on the processing

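The count of solute carriers past the adjusted threshold was 0 in each of the 18 combinations of comparison and measure, and stayed 0 wherever they were run with quantile normalization, scaling to the library median, log2(score + 1), calls at a score of 10 or at the library median, listings of 2 or more libraries, fragments listed with 1 promoter, and library sets as a mean or a random effect. With the replicate number as a block, which does not pair the libraries, the count was 0 in all 18 too. Over all promoters by mean score, quantile normalization raised the count of Late against Early to 21 higher and of Reactivated against Late to 24 lower.

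Without a variance trend, listings passed in 5 comparisons: 2 in Early against Basal, 3 in Late against Early, 3 in Reactivated against Late, 6 in Late against Basal and 3 in Reactivated against Basal. Those of Late against Early were the Slc36a1, Slc39a14 and Slc35e3 fragments (limma adjusted p = 0.000447, 0.00308 and 0.00284). By called interactions 1 promoter passed in Reactivated against Late and 1 in Reactivated against Basal, Slc16a11 in both (0.0139 and 0.0177). Shares over all listings or promoters without the trend are not given here, so these counts do not set solute carriers apart. Without Reactivated libraries 1 and 2, listings numbered 3 in Early against Basal, 4 in Late against Early, 5 in Late against Basal, and 190, 178 and 184 in Reactivated against Late, Basal and Early (background 25.1, 24.9 and 25.1%). By mean score 36, 33 and 33 promoters passed in these, and by called interactions 25, 28 and 23. For the 3, 4 and 5 listings, and for the 28 and 23 promoters, no share over the whole table is given here. Those counts too do not set solute carriers apart. The share of listings in a single library was 37.9% with fragments of 1 promoter and 64.3% with each set as 1 library; the share of the table's listings held by solute carriers did not move beyond its interval.

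Leaving out 1 library gave counts of listings from 0 to 41 in Early against Basal, 0 to 4 in Late against Early, 0 to 97 in Reactivated against Late, 0 to 45 in Late against Basal, 0 to 90 in Reactivated against Basal and 0 to 96 in Reactivated against Early. The highest counts came without Basal library 3 (41 and 45) or without Reactivated library 1 or 2 (83 to 97). By mean score the counts ran from 0 to 1, 0 to 1, 0 to 1, 0 to 1, 0 to 2 and 0 to 2 in the same order, and by called interactions from 0 to 0, 0 to 2, 0 to 5, 0 to 1, 0 to 3 and 0 to 3. All these counts are of the 774 solute carrier listings or 86 promoters. Shares over the whole table are not given beside them, so they do not set solute carriers apart. Slc17a6 passed in Late against Early without Late library 3 or 4 (0.021 and 0.02), its high values being 1 library set, and Slc39a12, with 3, 0, 2 and 2 called interactions in Late and 0 elsewhere, without Late library 2, 3 or 4 too. The single-library share ran from 26.3 to 45.8%. Of 72 named differences, 3 changed sign in 4 fits: Slc1a1 in Late against Basal (0.5) and in Reactivated against Basal (0.25) with fragments of 1 promoter, and, without Reactivated libraries 1 and 2, Slc1a1 in Reactivated against Basal (1.67) and Slc35a3 in Reactivated against Early (1.5). Of the 72, 41 passed in some alternative. The causes were not tested.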
